A study of Mus musculus with 8 samples.

Results

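Cytokine, growth factor and morphogen signalling was represented by 27 of the 812 genes in a table of expression in alveolar type 2 (AT2) cells. They were taken by their names alone, as every row whose symbol begins like that of an interleukin, chemokine, colony-stimulating factor, TNF, TGF-β, BMP, GDF, WNT, Frizzled, Notch, EGFL, FGF, VEGF, PDGF, IGF, amphiregulin, epiregulin, SOCS or LIF gene or of their receptors. The rule reads symbols, not values, but it was applied to a table that lists genes marked as changed. All 27 are annotated as protein coding.

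AT2 cells are the surfactant-producing cells of the alveolus. They came from C57BL/6 mice that were either wildtype (WT; *RhoA* fl/fl in the results of the study) or RhoA_KO (*Sftpc-cre;RhoA* fl/fl). In RhoA_KO mice, Cre under the *Sftpc* promoter removes the small GTPase RhoA. The labels list 4 samples per genotype, all of them primary cells of a single passage that received cockroach allergen (CRE) in culture at 50 μg/mL for 16 hours, so that no sample without allergen enters the comparison. The study describes the sequenced cells as coming from mice with allergen-induced asthma. It refers for them to a scheme that it also uses for isolated AT2 cells treated with CRE in vitro. Whether the mice themselves had received allergen could not be settled from the labels. The ages of the mice are not given in the sources used here, and the labels do not say whether the samples came from separate mice. Expression of *Sftpc* is not restricted to AT2 cells, and the cells were isolated by depleting cells positive for CD16/32, CD45, Ter119 or Sca-1. The table gives 1 FPKM value (fragments relative to transcript length in kilobases and to all mapped fragments) for each genotype, so the spread between samples and the depth of each are unknown, and no difference below was tested against replicate error. All 812 listed genes are marked as changed in the table. The study itself reports fewer changed genes, and the sources used here do not say why. Genes outside the table were not analysed here. *Rhoa* and *Sftpc* are among these, so the deletion was not checked here. The study reports RhoA deficiency of isolated AT2 cells by Western blot. Of 14 AT2 markers, 13 were in the table and all 13 were higher in RhoA-deficient cells. Of 98 markers of other cell types, 29 were in the table, 24 of them lower and 5 higher. *Clic5*, among the 5, turned to lower under the rescaling described below. Over all 812 genes, 55.2% were higher and 44.8% lower.

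Cytokines and chemokines are secreted proteins that activate or recruit leukocytes, and the airway epithelium is one of their sources after contact with allergen. Morphogens of the WNT, BMP and Notch families act over short distances between epithelium and mesenchyme, and they guide the formation and repair of alveoli. TGF-β ligands restrain immune cells and drive the deposition of matrix. RhoA itself organises the actin cytoskeleton and acts on transcription through actin-dependent coactivators.

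Of the 27 genes, 16 were higher and 11 were lower in RhoA-deficient AT2 cells. The shares of 59.3% and 40.7% lie close to those over all 812 genes, of which 55.2% were higher and 44.8% lower, so the direction of the genes as a whole was that of the table. The difference for each gene is given as log2(FPKM + 1) in RhoA-deficient minus WT cells, a scale on which the change of genes with low values is understated. A difference of at least 2-fold on this scale was reached upwards by 10 of the 27 genes (37.0%) against 23.6% of all genes, and downwards by 7 (25.9%) against 28.4%. With no pseudocount these counts were 11 and 10, against 29.7% and 37.3% of all genes. The median difference was 0.86 over the 27 genes and 0.65 over the table. The higher genes were also the more abundant. Their median of the mean FPKM was 47.3, against 8.64 for the 11 lower genes. Over the table the same medians were 24.5 and 6.99. Among the lower genes, *Wnt2b*, *Notch4*, *Gdf6* and *Egfl8* had a mean FPKM under 1. Without them 7 of 23 genes were lower, against 44.2% of the genes of the table with a mean FPKM of at least 1. With a mean FPKM of at least 5, which also removes *Wnt4*, 6 of 22 were lower, against 37.3%.

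**Figure D1:**
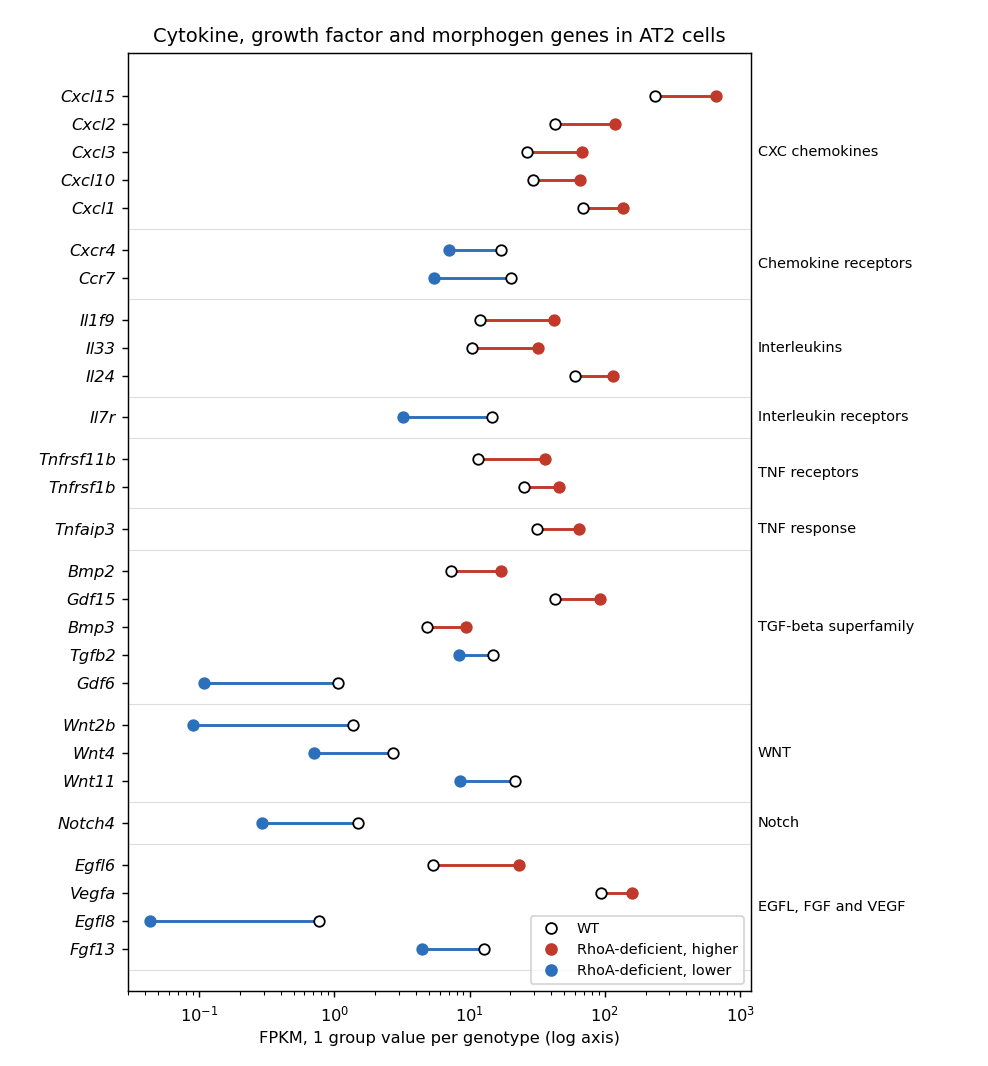
FPKM of each of the 27 genes on a log axis, with open points for WT and filled points for RhoA-deficient AT2 cells, 1 group value per genotype and no error bars because values per sample are not in the table. The 5 CXC chemokines lie to the right of their WT points, and the 3 WNT ligands to the left.

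One abundant transcript bears on the scale of all these values. *Scgb1a1*, a club cell secretory protein, made up 45.0% of the summed FPKM of the table in WT cells and 15.1% in RhoA-deficient cells. The RhoA-deficient values were divided by 1.56, the factor that makes the sums of all other genes of the table equal. After this, 16 genes were again higher and 11 lower. At least 2-fold higher were 2 in place of 10, and at least 2-fold lower were 9 in place of 7. Over all genes the same shares were 5.79% and 42.2%, and the median difference moved from 0.65 to 0.03. The differences of the 16 higher genes then ranged from 0.10 for *Vegfa* to 1.30 for *Egfl6*, with 0.91 for *Il33* and 0.53 for *Bmp2*. Whether this transcript moved the FPKM of other genes was not tested. The other genes in these sums are all marked as changed, so the factor may also remove part of a difference between the genotypes. The rescaled values below carry this limit.

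**Figure D2:**
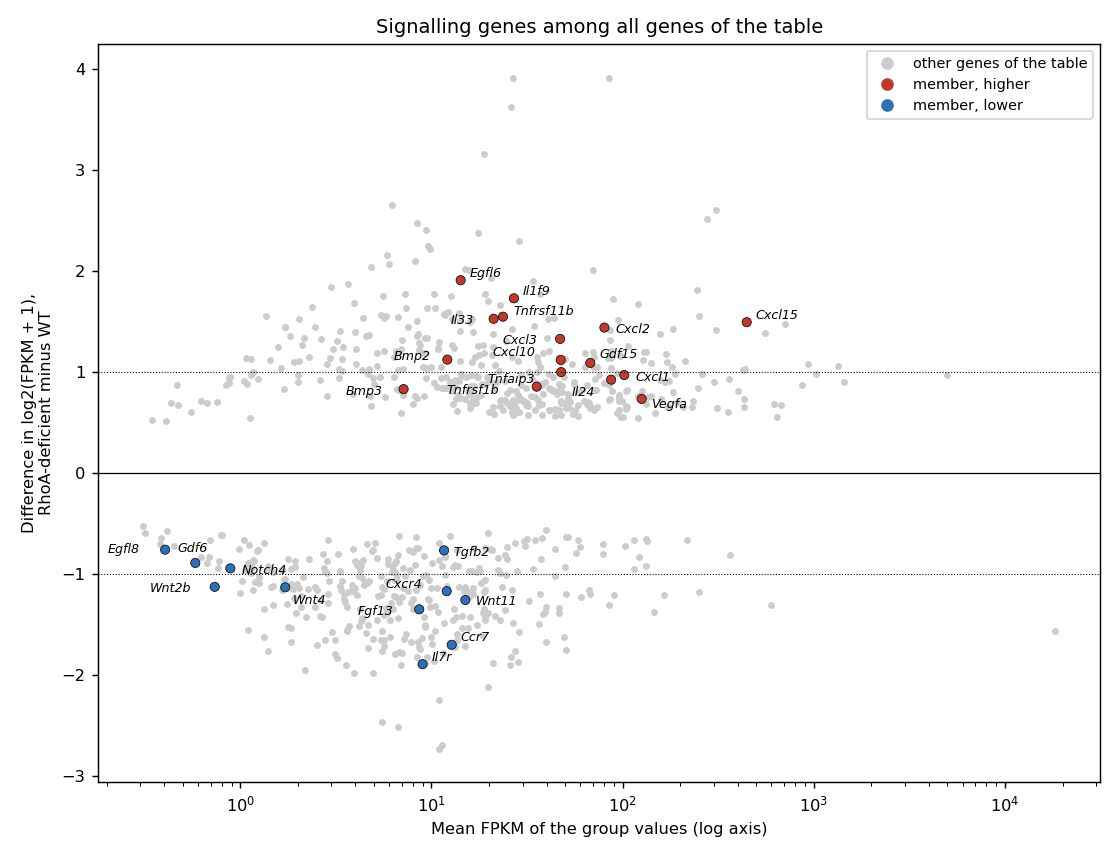
Difference in log2(FPKM + 1), RhoA-deficient minus WT, against the mean FPKM of both groups on a log axis, with the 27 genes named and the other genes of the table in grey. Dotted lines mark a difference of 1 in either direction. On this scale no gene of the 27 reaches the extremes of the table. Their range is -1.89 to 1.91 against -2.73 to 3.92 over all genes. The scale understates low genes, and without a pseudocount *Egfl8* lay at -4.14 and *Wnt2b* at -3.94.

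The 5 CXC chemokine ligands among the 27 genes were higher, beside 55.2% of all genes, while a further CXC ligand, *Ppbp*, was lower. These small secreted proteins attract leukocytes, *Cxcl1*, *Cxcl2* and *Cxcl3* above all neutrophils through CXCR2, and *Cxcl10* lymphocytes through CXCR3. *Cxcl15*, also called lungkine, is made by the lung epithelium and had the highest level of the 27 genes in both genotypes, 233.2 FPKM in WT and 658.4 FPKM in RhoA-deficient cells, a difference of 1.49. *Cxcl2* was measured at 42.8 FPKM in WT and 117.8 FPKM in RhoA-deficient cells, a difference of 1.44. *Cxcl3* was measured at 26.4 and 67.8 FPKM, a difference of 1.33. *Cxcl10* and *Cxcl1* differed by less, and *Cxcl1* was just under the 2-fold threshold. *Cxcl10* was measured at 29.5 and 65.4 FPKM, a difference of 1.12. *Cxcl1* stood at 68.7 and 135.5 FPKM, a difference of 0.97. Under the rescaling without *Scgb1a1* the 5 differences were between 0.34 and 0.86, so that none reached 2-fold. Summed over the 5 ligands, 400.5 FPKM in WT stood against 1045 FPKM in RhoA-deficient cells. *Cxcl15* is also one of the AT2 markers. The 12 of these that are not among the 27 genes had a median difference of 1.15 and a range of 0.93 to 3.16. Under the same rescaling the 12 ranged from 0.30 for *Lpcat1* to 2.55 for *Slc34a2*. The part of AT2 cell share or identity in the chemokine values was not tested.

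The genes *Cxcl3*, *Cxcl15*, *Cxcl1* and *Cxcl2* lie in this order on chromosome 5 of GRCm38, all on the plus strand, within 119.8 kb (chr5:90786103-90905938). The same cluster held the ligand that went the other way. *Ppbp*, which encodes a CXC chemokine of platelets and does not bear the Cxcl prefix, ends 16.0 kb before the start of *Cxcl3*, and was measured at 19.2 FPKM in WT and 6.95 FPKM in RhoA-deficient cells, a difference of -1.35. *Cxcl5* and *Pf4*, its neighbours there, were not analysed here. *Cxcl10* lies 1441 kb further on, and its value is less certain, since the table gives it the same locus as *Art3*, with which it shares 5.91% of its exonic bases on the opposite strand. *Art3* was lower by 0.53 in log2(FPKM + 1). The libraries were stranded, but whether strand entered the counting is not given in the sources used here.

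**Figure D3:**
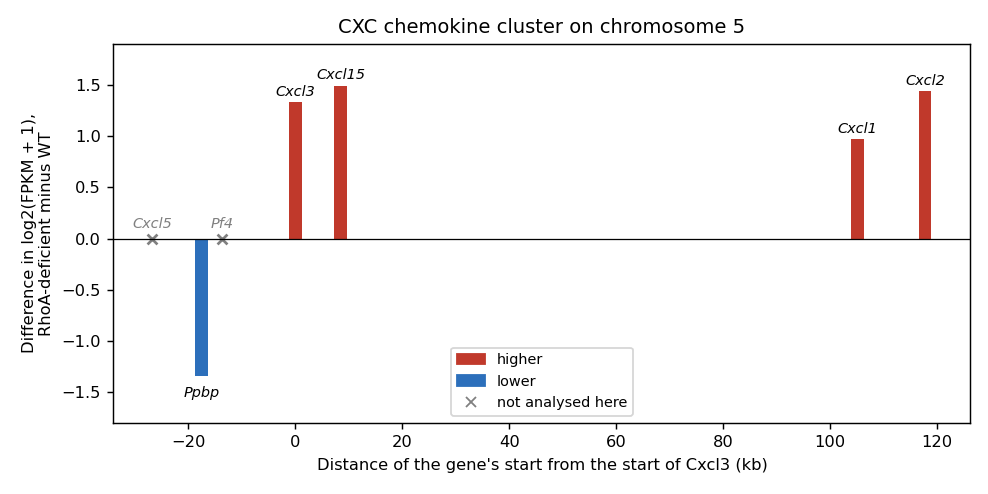
Difference in log2(FPKM + 1), RhoA-deficient minus WT, of the protein-coding genes of the CXC chemokine cluster, placed by the distance of their start from that of Cxcl3 in kb. The 4 red bars, from 0.97 to 1.49, lie at and downstream of Cxcl3, the blue bar of Ppbp at -1.35 lies upstream of it, and grey crosses mark genes that were not analysed here.

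The promoters of all 5 ligands are shown, a choice made after their values were seen, so that those with and without a match to the κB site, the binding site of NF-κB, can be compared. RefSeq promoters of GRCm38.p6 were found for 21 of the 27 genes, with 29 starts. The 250 bases before each start were searched on both strands for the κB consensus. A match was present in 4 of the 5 CXC ligands, *Cxcl15* being the one without, and in 8 of the 21 genes (38.1%). Of all 27025 genes with a promoter in RefSeq, 8.23% had a match, and the shares of the higher and lower genes of the table were 15.0% and 14.0%. The 145 bases that end 31 bases before the start are printed 5′ to 3′ on the strand of the gene, with κB matches in capitals:
Cxcl3 (chr5:90785926-90786070, plus strand): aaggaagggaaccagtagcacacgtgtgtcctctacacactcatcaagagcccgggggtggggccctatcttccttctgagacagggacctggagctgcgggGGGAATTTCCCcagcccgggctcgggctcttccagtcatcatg
Cxcl15 (chr5:90794359-90794503, plus strand): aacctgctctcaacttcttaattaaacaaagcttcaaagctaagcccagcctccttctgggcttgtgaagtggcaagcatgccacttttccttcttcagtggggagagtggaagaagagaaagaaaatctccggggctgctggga
Cxcl1 (chr5:90891070-90891214, plus strand): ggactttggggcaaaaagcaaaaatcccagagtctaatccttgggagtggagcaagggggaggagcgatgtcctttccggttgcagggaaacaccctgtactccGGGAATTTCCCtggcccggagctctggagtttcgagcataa
Cxcl2 (chr5:90903724-90903868, plus strand): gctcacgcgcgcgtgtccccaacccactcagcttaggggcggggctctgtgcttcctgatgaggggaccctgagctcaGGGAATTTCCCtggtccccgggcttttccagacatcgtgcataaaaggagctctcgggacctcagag
Cxcl10 (chr5:92348920-92349064, minus strand): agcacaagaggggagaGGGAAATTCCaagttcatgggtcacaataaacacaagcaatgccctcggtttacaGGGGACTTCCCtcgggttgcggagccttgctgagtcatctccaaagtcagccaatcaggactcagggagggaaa

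*Cxcl1*, *Cxcl2* and *Cxcl3* carry the same stretch of 11 bases, GGGAATTTCCC, which holds overlapping κB matches. It begins 73 bases before the start in *Cxcl3*, 71 in *Cxcl1* and 97 in *Cxcl2*. On either strand this stretch occurs in 14 of 32851 RefSeq promoters (0.0426%). *Cxcl10* has separate matches that begin 159 and 104 bases before the start. Of the other genes, *Tnfaip3*, *Vegfa*, *Fgf13* and *Notch4* had matches as well, so the letters occur among lower genes too, in 2 of 9 with a promoter against 6 of 12 higher genes. The CArG box, the site of serum response factor, was found in 0 of the 21 genes and in 1.62% of all genes with a promoter. In the table it was found in 1.16% of the higher and 3.10% of the lower genes. These matches describe sequence, not binding.

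Both chemokine receptors and the interleukin receptor among the 27 genes were lower, beside 44.8% of all genes. *Ccr7* guides lymphocytes and dendritic cells to lymph nodes, *Cxcr4* is the receptor of CXCL12, and *Il7r* encodes the IL-7 receptor chain that is shared with the receptor of TSLP. *Il7r* had a difference of -1.89, the most negative of the 27 genes on the log2(FPKM + 1) scale but not without a pseudocount, where *Egfl8*, *Wnt2b*, *Gdf6* and *Notch4* lay below it. It had 14.7 FPKM in WT and 3.24 FPKM in RhoA-deficient cells. *Ccr7* was measured at 20.1 and 5.48 FPKM, a difference of -1.70. *Cxcr4* was measured at 17.0 and 7.01 FPKM, a difference of -1.17. No other of the 23 chemokine receptors on the list was in the table. Markers of lymphocytes and pan-leukocyte markers moved in the same direction as these receptors. Of 13 such markers, 6 were in the table and all 6 were lower, their summed level being 121.5 FPKM in WT and 35.1 FPKM in RhoA-deficient cells. They include *Trac*, a constant region of the T cell receptor, at 41.2 and 10.3 FPKM, *Cd4* at 12.0 and 1.28 FPKM and *Ptprc*, which encodes the CD45 used for depletion, at 21.5 and 7.41 FPKM. Markers of myeloid cells went both ways. The neutrophil marker *S100a9* was higher, at 2.69 and 16.5 FPKM, and of 3 macrophage markers *Cd14* was higher, at 65.8 and 132.0 FPKM, while *Gpnmb* and *Lpl* differed by -2.25 and -1.35. In bulk RNA, fewer cells of a type and less RNA per cell cannot be told apart, and the part of lymphocytes in the receptor values was not tested.

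The 3 interleukins in the table were higher, beside 55.2% of all genes. *Il33* (ENSMUSG00000024810.16) encodes an alarmin of the IL-1 family that epithelial cells release upon damage and that activates group 2 innate lymphoid cells. It lies on chromosome 19 from 29925114 to 29960718 on the plus strand. *Il33* was measured at 10.4 FPKM in WT and 31.9 FPKM in RhoA-deficient cells, a difference of 1.53. *Il1f9*, now called *Il36g*, is another IL-1 family ligand of epithelia and had 12.0 FPKM in WT and 42.1 FPKM in RhoA-deficient cells, a difference of 1.73. *Il24*, an IL-10 family cytokine, was higher at both levels but differed least, with 59.8 and 114.4 FPKM and a difference of 0.92. Under the rescaling without *Scgb1a1* the differences were 0.91 for *Il33*, 1.11 for *Il1f9* and 0.29 for *Il24*. *Il33* and *Il1f9* were the only genes of the 20 on the IL-1 family list in the table, so none of the receptors or inhibitors of that family has a value here. Of 23 genes of type 2 cytokine signalling, *Il33*, *Il7r* and *Retnla* were listed, and *Retnla*, a target of IL-4 and IL-13 signalling, had a difference of 3.92 with 9.72 FPKM in WT and 160.9 FPKM in RhoA-deficient cells. *Tslp*, *Il25*, *Il4* and *Il13* were not analysed here. The promoter at the upstream start of *Il33* is shown as that of a leading gene without a κB match in the window:
Il33 (chr19:29924938-29925082, plus strand): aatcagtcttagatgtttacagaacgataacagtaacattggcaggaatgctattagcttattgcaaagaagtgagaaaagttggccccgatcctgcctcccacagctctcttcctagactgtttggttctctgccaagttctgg

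Of 60 genes on the TNF superfamily list, 7 were in the table, 6 of them higher and 1, a ligand, lower, beside 55.2% of all genes higher. *Tnfrsf11b* encodes osteoprotegerin, a secreted decoy receptor of RANKL and TRAIL, and was measured at 11.6 FPKM in WT and 35.8 FPKM in RhoA-deficient cells, a difference of 1.55. *Tnfrsf1b*, a receptor of TNF, was measured at 25.01 and 46.05 FPKM, a difference of 0.86. Under the rescaling without *Scgb1a1* these differences were 0.93 for *Tnfrsf11b*, under 2-fold, and 0.23 for *Tnfrsf1b*. *Tnfaip3* encodes A20, an inhibitor of NF-κB that NF-κB itself induces. It was measured at 31.5 and 63.9 FPKM, a ratio of 2.03, while on the log2(FPKM + 1) scale its difference rounds to 1.00 and lies just under the 2-fold threshold. Of the 15 response genes on the TNF list, 4 were in the table and all 4 were higher. Beside *Tnfaip3* these were the NF-κB inhibitor *Nfkbia* with a difference of 1.05, the adhesion molecule *Icam1* with 0.71 and *Nfkbiz* with 0.61, and under the rescaling without *Scgb1a1* the differences were 0.37 for *Tnfaip3*, 0.41 for *Nfkbia*, 0.08 for *Icam1* and -0.01 for *Nfkbiz*. *Ltb*, which encodes lymphotoxin beta and is expressed by lymphocytes, was lower by 1.88 in log2(FPKM + 1), with 33.5 FPKM in WT and 8.34 FPKM in RhoA-deficient cells. *Tnf* was not analysed here.

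Ligands of the TGF-β superfamily went in both directions. Lower were *Tgfb2*, a TGF-β isoform, and *Gdf6*, a BMP-type ligand of skeletal and eye development. *Tgfb2* (ENSMUSG00000039239.14, chromosome 1 from 186622792 to 186705989, minus strand) was measured at 14.9 FPKM in WT and 8.37 FPKM in RhoA-deficient cells, a difference of -0.77. It shares 2.14% of its exonic bases with *Gm29491* on the opposite strand. *Gdf6* (ENSMUSG00000051279.2, chromosome 4 from 9844372 to 9862345, plus strand) was near the low end of the table, with 1.06 and 0.109 FPKM and a difference of -0.89. Without a pseudocount the difference of *Gdf6* was -3.28. Higher were *Bmp2* and *Bmp3*, of which BMP2 activates BMP signalling and BMP3 opposes it, and the stress-induced *Gdf15*. *Bmp2* was measured at 7.25 and 17.0 FPKM, a difference of 1.12. *Bmp3* was measured at 4.87 and 9.44 FPKM, a difference of 0.83. *Gdf15*, the most abundant of the 5 ligands, was measured at 43.0 and 92.6 FPKM, a difference of 1.09. Under the rescaling without *Scgb1a1* the differences were -1.32 for *Tgfb2*, -0.94 for *Gdf6*, 0.53 for *Bmp2*, 0.27 for *Bmp3* and 0.46 for *Gdf15*. Among the other genes of the pathway, 0 of 13 receptors and 0 of 17 inhibitors on the list were in the table. Of 14 target genes, *Ccn2*, a matrix-associated protein induced by TGF-β and by actin-dependent signalling, was listed, and was lower by 0.92 with 173.5 FPKM in WT and 91.1 FPKM in RhoA-deficient cells. *Tgfb1* was not analysed here.

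Of 63 genes on the WNT list, 8 were in the table, 6 of them lower, and all 4 ligands among the 8 were lower, beside 44.8% of all genes lower. *Wnt11* acts mainly outside the β-catenin pathway and was the most abundant of them, with 21.6 FPKM in WT and 8.46 FPKM in RhoA-deficient cells, a difference of -1.26. It shares 8.80% of its exonic bases with *Gm8398* on the opposite strand. *Wnt4* had 2.73 and 0.704 FPKM, a difference of -1.13, or -1.96 without a pseudocount. *Wnt2b*, a ligand of lung mesenchyme and mesothelium in development, had 1.38 and 0.0901 FPKM and likewise a difference of -1.13, which was -3.94 without a pseudocount. The secreted amplifier *Rspo1* was lower too, at 6.88 and 0.993 FPKM with a difference of -1.98. No WNT receptor of the 18 on the list was in the table. Genes that respond to WNT went both ways. *Lef1* and *Tcf7*, transcription factors of the pathway that are also abundant in T cells, differed by -1.90 and -1.76, while the feedback inhibitor *Nkd1* and the target gene *Sp5* differed by 1.26 and 1.45. Of 26 markers of fibroblasts, mesothelium and endothelium, 7 were in the table and all 7 were lower. Their summed level was 294.2 FPKM in WT and 110.9 FPKM in RhoA-deficient cells, and the mesothelial markers *Msln*, *Lrrn4* and *Upk3b* differed by -1.31, -1.23 and -1.13. The part of these cells in the WNT values was not tested.

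**Figure D4:**
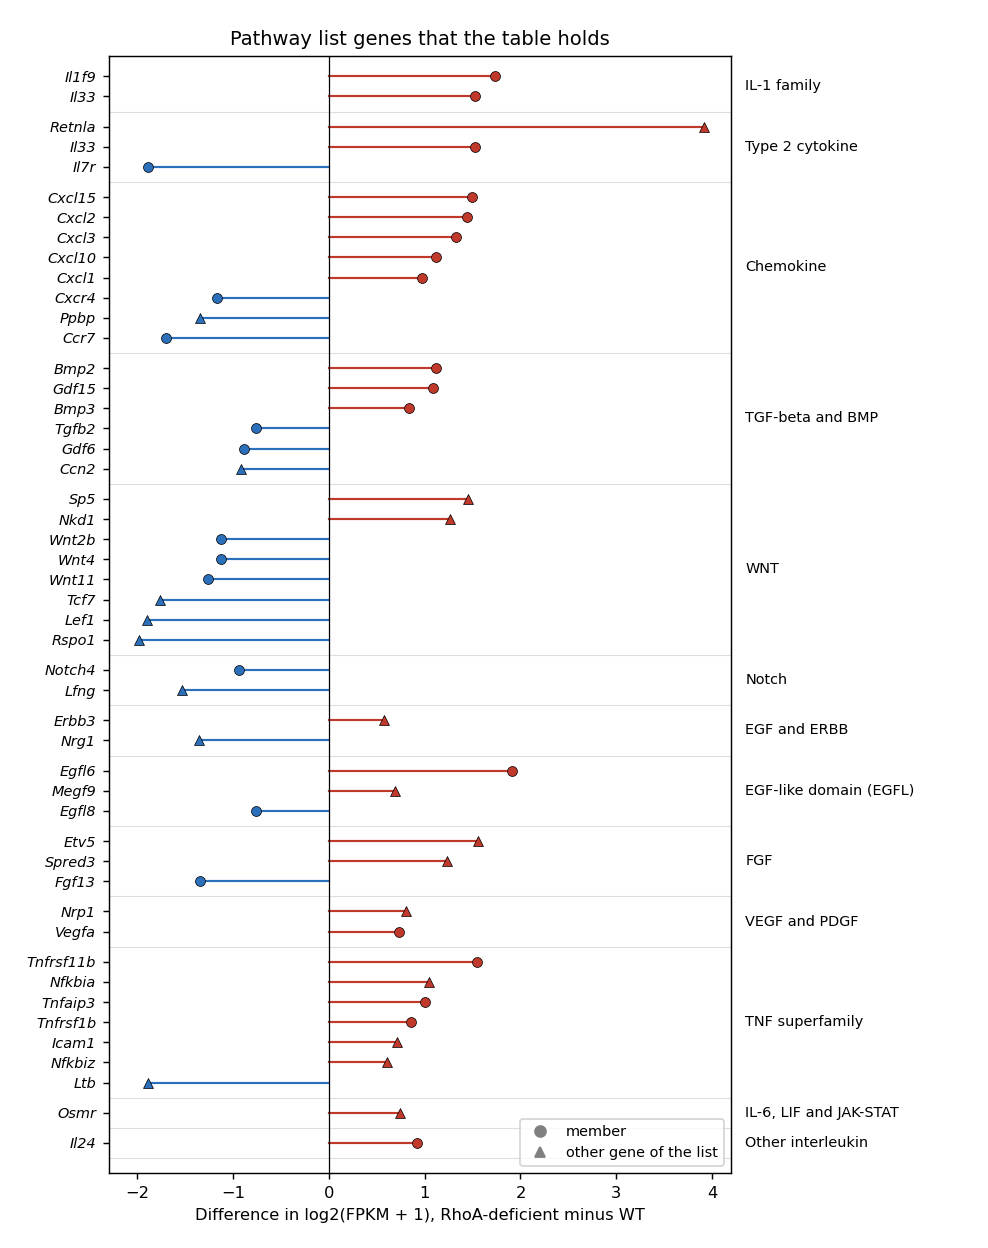
Difference in log2(FPKM + 1), RhoA-deficient minus WT, of every gene of the pathway lists that is in the table, with circles for the 27 genes, triangles for other genes of the lists, red for higher and blue for lower. Red marks 6 of 7 TNF superfamily genes (5 under the rescaling without Scgb1a1) and blue 6 of 8 WNT genes, where 55.2% of all genes were higher and 44.8% lower, and Retnla at 3.92 lies apart from the rest.

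*Notch4* and *Egfl8* are neighbours in the region of the major histocompatibility complex on chromosome 17, 24.8 kb apart. Both were lower, beside 44.8% of all genes. *Notch4* (ENSMUSG00000015468.14, from 34564268 to 34588503, plus strand) is a Notch receptor best known from endothelium, and had 1.48 FPKM in WT and 0.291 FPKM in RhoA-deficient cells, a difference of -0.94, or -2.35 without a pseudocount. *Egfl8* (ENSMUSG00000015467.14, from 34613349 to 34615971, minus strand) encodes a secreted protein with EGF-like repeats and had the lowest level of the 27 genes in both genotypes. It was listed at 0.766 FPKM for WT and at 0.0434 FPKM for RhoA-deficient cells, a difference of -0.76, or -4.14 without a pseudocount. *Egfl8* shares 34.9% of its exonic bases with another annotated gene on its strand, and its locus in the table also spans *Ppt2* and *Agpat1*. In this respect its FPKM is less certain than that of *Notch4*. By qPCR the study reports decreased *Egfl8* in AT2 cells of RhoA_KO mice. The endothelial list had 1 of its 12 markers in the table, *Pecam1*, with 10.6 FPKM in WT and 5.95 FPKM in RhoA-deficient cells, a difference of -0.74. Its part in the value of *Notch4* was not tested. Of the other Notch genes on the list, the glycosyltransferase *Lfng* was in the table, lower by 1.54. The promoters of these neighbours, both lower and of low level, are shown side by side. *Notch4* has a κB match that begins 168 bases before its start, and *Egfl8* has none:
Notch4 (chr17:34564120-34564264, plus strand): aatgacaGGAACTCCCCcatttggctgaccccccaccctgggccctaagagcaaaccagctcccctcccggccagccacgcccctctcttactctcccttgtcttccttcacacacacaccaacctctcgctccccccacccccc
Egfl8 (chr17:34616002-34616146, minus strand): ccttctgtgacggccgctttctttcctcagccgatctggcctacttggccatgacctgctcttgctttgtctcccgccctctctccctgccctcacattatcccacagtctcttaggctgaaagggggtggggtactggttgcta

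Of the remaining growth factor genes, *Egfl6* had the largest difference upwards among the 27. It encodes a secreted protein with EGF-like repeats that binds integrins, and had 5.40 FPKM in WT and 23.0 FPKM in RhoA-deficient cells, a difference of 1.91. *Vegfa*, an endothelial growth factor that alveolar epithelium makes in quantity, had 94.2 and 157.4 FPKM, a difference of 0.73 and the smallest among the higher genes. Its receptor component *Nrp1* was higher by 0.80 in log2(FPKM + 1). Under the rescaling the differences were 0.10 for *Vegfa* and 0.20 for *Nrp1*. *Vegfa* is also on the list of alveolar type 1 (AT1) cell markers, whose other genes in the table went both ways. *Ager* and *Clic5* differed by 0.91 and 0.56, *Hopx* and *Pdpn* by -0.83 and -0.80. *Fgf13*, which belongs to the FGF family by sequence but acts inside the cell on sodium channels and microtubules, was lower, with 12.8 and 4.43 FPKM and a difference of -1.35. The FGF-responsive genes *Etv5* and *Spred3* differed by 1.56 and 1.23, and *Etv5* is also an AT2 marker. Of the EGF and ERBB genes, the ligand *Nrg1* had a difference of -1.35 and the receptor *Erbb3* of 0.57, which turned to -0.05 under the rescaling. *Osmr*, a receptor of oncostatin M, differed by 0.75. From the lists of IGF and of colony-stimulating factors, with 18 and 14 genes, none was in the table. The 15 pathway lists together hold 512 genes, of which 47 were in the table, 28 higher and 19 lower, with a median difference of 0.73, close to the 55.2% higher and the median of 0.65 over all genes.

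By role, 12 of the 17 ligands among the 27 genes were higher and 5 were lower, whereas 1 of the 5 signalling receptors, *Tnfrsf1b*, was higher and 4 were lower. Of all genes listed, 55.2% were higher and 44.8% lower. The decoy receptor *Tnfrsf11b*, higher by 1.55, is not counted among these 5. The median difference was 0.97 for the ligands and -1.17 for the receptors, beside 0.65 over all genes of the table. Under the rescaling without *Scgb1a1* these medians were 0.34, -1.71 and 0.03, with the same counts by role. The 5 lower ligands were the 3 WNT ligands, *Tgfb2* and *Gdf6*, while the other 3 ligands of the TGF-β superfamily were higher. The receptor count rests on *Il7r*, *Ccr7*, *Cxcr4* and *Notch4*, and the values of leukocyte and endothelial markers that moved with them are given above.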

How the data were processed

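RNA-seq of AT2 cells from 4 WT and 4 RhoA_KO samples was used. Per the methods of the study, the reads of stranded libraries were aligned by the authors to GRCm38 with STAR 2.7.2b. Partek and RefSeq served for annotation, and Cufflinks for the comparison of both genotypes. The submitters' processing notes name mm9, but 651 of the 812 loci in the deposited table equal the gene's span in GENCODE M21 of GRCm38 exactly, and all 812 gene identifiers match it without their version. The deposited FPKM values are the authors' mean, 1 per genotype, normalized by them for transcript length and fragment number. The table also holds the authors' fold change, test statistic, p-value, q-value and mark of significance. These were not used, other than to see that every row carries the mark. The depth per sample is unknown, so no interval is given.

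From these values, differences in log2(FPKM + 1), their counts and medians were derived in Python 3.11.15 with NumPy 2.4.6 and pandas 2.3.3, beside exon overlaps and promoter matches. Plots were drawn with Matplotlib 3.10.9. The arithmetic was tested on simulated data. No test across samples could be run on 1 value per genotype. The planned limma fit, which applied only to values per sample, was therefore not run. The 27 genes were taken by symbol with no filter on low values. All of them are named, and other genes are named from 15 pathway lists and 14 marker lists. The members and lists were chosen with earlier results of these data known. The promoters of *Il33*, *Notch4* and *Egfl8* were shown by a rule on the leading genes. Those of the 5 CXC ligands were chosen after their values were seen. No promoter is shown for *Tgfb2*, whose window overlaps an exon of another gene, or for *Gdf6*. Alternatives were pseudocounts of 0.1, 0.01 and none, a mean FPKM of at least 1 or 5, and folds of 1.5 and 4. Added after seeing the data were the genes with their own span and exons, the genes not on a marker list, and a rescaling without *Scgb1a1*.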

Additional observations from a re-analysis of the deposited data

How the results depend on the processing

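No paired analysis was possible because samples were averaged before deposit, which left 1 value per genotype. For the same reason no replicate could be left out. Centring on the median was not run, since every listed gene is marked as changed. The rescaling without *Scgb1a1* uses the same listed genes and has this limit too. A pseudocount cannot turn the sign of a ratio, so directions hold by construction under it. The median difference of the 27 genes, 0.86 with a pseudocount of 1, was 0.94 with 0.1, with 0.01 and with none. It was 0.97 and 0.98 with a mean FPKM of at least 1 and 5, which left 7 and 6 lower genes in place of 11 by their construction. Without a pseudocount, 4 genes moved by over 1 on the log2 scale. They are *Egfl8*, *Wnt2b*, *Gdf6* and *Notch4*. With each smaller pseudocount 11 genes were at least 2-fold higher and 10 lower, against 10 and 7. Folds of 1.5 and 4 were counted with the pseudocount of 1 kept. Past 1.5 lay 16 genes upwards and 11 downwards, as did 53.4% and 44.5% of all genes. Past 4 lay 0 and 0, where 20 and 6 of the 812 genes did. The plain ratio of FPKM did pass 4 upwards for *Egfl6*, at 4.27. Downwards it did so for *Il7r* (4.56), *Notch4* (5.10), *Gdf6* (9.72), *Wnt2b* (15.3) and *Egfl8* (17.6). Of these lower genes, all but *Il7r* had a mean FPKM under 1. In the alternatives chosen after seeing the data, the median was 0.92 for the 23 genes with their own span and exons and 0.89 for the 24 not on a marker list. With RhoA-deficient values rescaled without *Scgb1a1* it was 0.27, and 2 genes, *Il1f9* and *Egfl6*, were at least 2-fold higher in place of 10, and 9 lower in place of 7. The cause was not tested. No gene of the 27 changed direction under these alternatives. Depth is unknown, and 5 genes lay under 1 FPKM in RhoA-deficient cells, where it matters most.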
